A study of Mus musculus with 51 samples.

Results

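Bmal1 knockout mice on high-fat diet were compared with Bmal1 knockout mice on regular chow, over all genes. The comparison rests on the 8 knockout libraries of the study's first batch, 5 on high-fat diet and 3 on chow, chosen by their labels from 51 libraries in the series, and on the 12762 genes of 48321 listed that were expressed enough to be tested. Each library came from the whole gastrocnemius (calf) muscle of 1 animal. The knockouts, labelled Bmal1KO, lack Bmal1 in skeletal muscle only, and the controls, labelled Bmal1fx/fx, carry the floxed gene and served in the same batch on both diets (7 on high-fat diet, 4 on chow). The sources used here do not state age, sex, time on diet, harvest time, the driver of the Cre recombinase or which exons were removed. The series addresses the role of BMAL1 and of HIF, the hypoxia-inducible transcription factors, in how obese animals handle glucose. The comparison told here asks how a high-fat diet alters transcripts in muscle whose fibres are labelled as lacking Bmal1.

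BMAL1, encoded by Arntl, pairs with CLOCK to drive daily cycles of transcription from E-box sites, among them those of the Per, Cry and REV-ERB genes that feed back on it. In skeletal muscle the clock is known to shape glucose uptake, glycogen and the daily switch between sugar and fat as fuel. A high-fat diet is known to raise the supply of fatty acids to muscle, whose use is switched on in part through PPAR receptors, and to enlarge fat depots around and between the fibres. QuantSeq, the method used, counts 1 tag from the 3′ end of each transcript, so levels are given as CPM (counts scaled to a common library total, with TMM factors between libraries) and are compared between libraries and not between genes. Values of a gene are given below in the order of the animals' numbers, 1 to 5 on high-fat diet and 1 to 3 on chow. Whether the diets overlap only describes these values. For a gene that passed it adds no support, since the test rests on the same values. Changes are log2 fold changes of high-fat diet over chow ± standard error, from edgeR's quasi-likelihood test, and a gene rose or fell where its p, adjusted by Benjamini-Hochberg over all tested genes, was under 0.05.

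The 8 knockout libraries held 9086647 to 14706388 counts each. Muscle defined all of them: the 10 fibre markers, among them Acta1, Ckm and Myh4, summed to 103138 to 128455 CPM on high-fat diet and 122429 to 145214 CPM on chow, none of the 10 was at 0 and none changed. Mitochondrial transcripts took 33.7 ± 3.78% of counts (SD, n = 5) on high-fat diet and 26.0 ± 2.85% (SD, n = 3) on chow, a difference of 7.63 percentage points (two-sided exact permutation test, p = 0.0357, where 0.0179 is the smallest possible). Every high-fat library, at 30.1 to 37.9%, was above every chow library, at 23.3 to 28.9%. The p rose above the threshold, up to 0.0952, without high-fat animal 3 or 5 or any chow animal, where the difference ran from 6.25 to 9.09 points. Without a chow animal the smallest possible p is 0.0476, so these fits have little room to pass. Chow animal 1 stood apart: its 14 B and T lymphocyte markers summed to 188.7 CPM against 12.3 and 17.1 CPM in the other chow knockouts and 19.8 to 28.7 CPM on high-fat diet, and all 14, Ms4a1 and Cd3e among them, were above 0 in it. Its correlations with the other 7 libraries (log2 CPM) were 0.961 to 0.964, and those among the other 7 were 0.972 or above. Results that rest on it are given without it too.

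**Figure D1:**
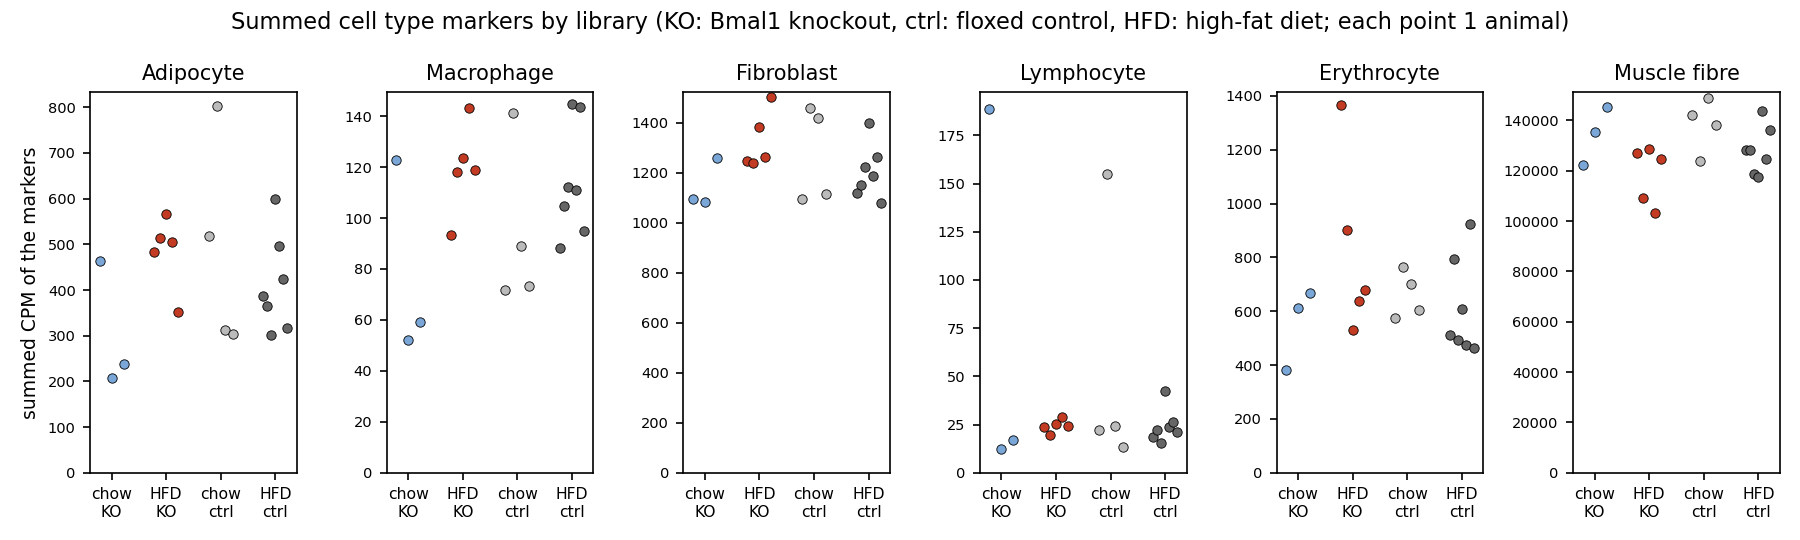
Summed CPM of the markers of 6 cell types in each library, with the libraries of the 4 groups on the x axis and each axis starting at 0. Chow knockout 1 (188.7 CPM) and 1 chow control (155.1 CPM) stand far above all other libraries for lymphocyte markers, and chow knockout 1 is also the highest chow knockout for adipocyte and macrophage markers.

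Arntl itself did not pass the test. It was at 5.56, 9.03, 8.28, 8.87 and 5.29 CPM on high-fat diet and at 9.82, 9.00 and 4.54 CPM on chow, so that the groups overlapped, with a log2 difference of -0.06 ± 0.28 (adjusted p = 0.95) whose sign turned under some alternatives (-0.34 to 0.14). The gene lies on chromosome 7 from 113207465 to 113314126 (GENCODE M21 on GRCm38, as all positions below), and since a 3′ tag may lie outside the deleted part, its level does not check the genotype.

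On high-fat diet the knockout muscle had more transcript of leptin, haptoglobin and sarcolipin, of proteins of the strained sarcomere, of collagen IV and VI and other matrix proteins, and of enzymes that oxidise fatty acids. It had less transcript of Pfkfb3, of glycogen phosphorylase (Pygm) and of other glycogen genes, of the ubiquitin ligase Fbxo32 and of several genes that glucocorticoids induce. In all, 219 genes rose (1.72% of those tested) and 200 fell (1.57%), 113 of the 419 by over 2-fold. Each count of called list members below is to be read beside these shares. The median change was 0.83 among those that rose, -0.62 among those that fell and -0.01 over all tested genes. At unadjusted p under 0.05 there were 2039 genes, and DESeq2 called 549. Chow animal 3 carried much of the count: without it 60 genes rose and 72 fell (132 in all), while leaving out high-fat animal 4 or 2 left 264 or 272 and leaving out any other knockout left 318 to 370. Of the 419 genes, 91 (47 higher, 44 lower) passed in all 8 of these fits. The calls of leptin, haptoglobin, sarcolipin, Pfkfb3 and the glycogen genes were not among the 91. Leaving out chow knockout 1 together with chow control 2, which was also rich in lymphocyte transcripts, gave 429. Only 291 of these were among the 419, so many of the genes called differed. Without chow knockout 1 alone 343 passed, 264 of them among the 419. Without scaling for library composition the split was 118 higher and 316 lower.

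**Figure D2:**
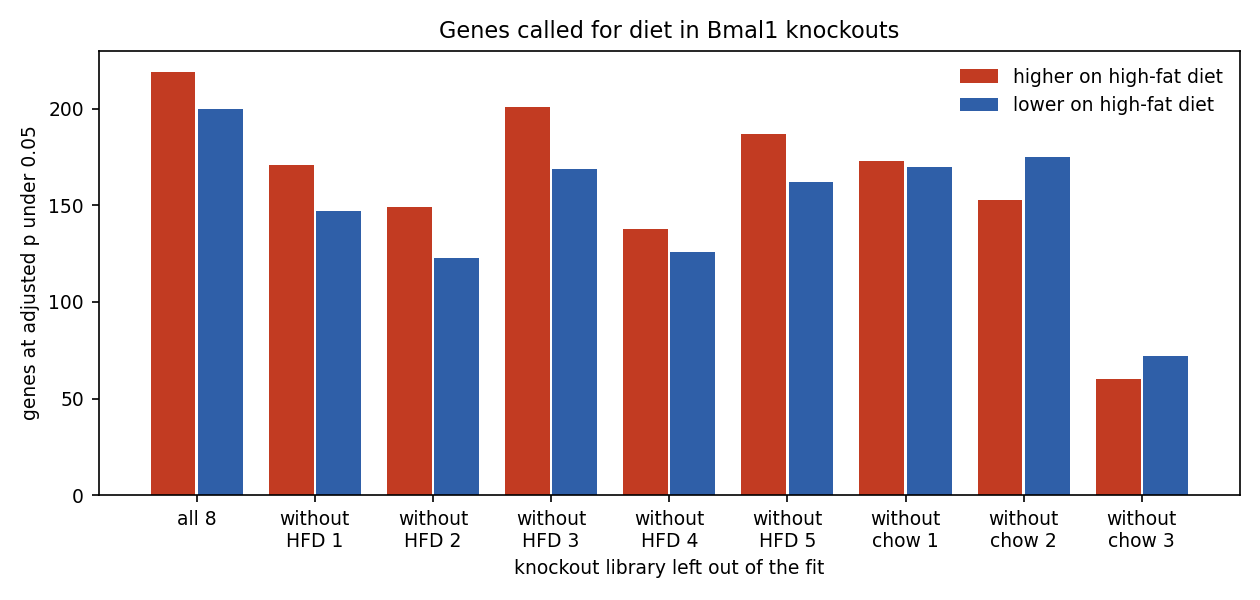
Number of genes at adjusted p under 0.05 for diet in Bmal1 knockouts (y axis), higher and lower on high-fat diet, with all 8 libraries and with each knockout library left out in turn (x axis). The count falls furthest without chow animal 3, to 60 higher and 72 lower.

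Among the 12 genes with the highest change, taken from named genes that passed with an average log2 CPM of at least 2, Lep came first. Lep, the adipocyte hormone leptin (chromosome 6 from 29060220 to 29073877), was at 22.04, 22.3, 35.7, 37.7 and 11.4 CPM on high-fat diet and at 2.16, 0 and 1.09 CPM on chow. Every high-fat library was above every chow library, 1 of which held no Lep count, and the change was 4.57 ± 0.92 (adjusted p = 0.011). Lep lost its call without chow animal 3 (4.59, adjusted p = 0.076). Hp, the haemoglobin-binding plasma protein haptoglobin (chromosome 8 from 109575128 to 109579172), was at 20.3, 28.8, 50.97, 33.8 and 16.5 CPM on high-fat diet and at 2.65, 0.657 and 2.86 CPM on chow. The groups were apart here too, with high-fat animal 3 the highest, and the change was 3.86 ± 0.83 (adjusted p = 0.018). Hp lost its call without chow animals 1, 2 or 3 (3.43 to 4.19, adjusted p from 0.055 to 0.084). Sln, sarcolipin, the small inhibitor of the sarcoplasmic calcium pump (chromosome 9 from 53850164 to 53854560), was at 15.98, 37.01, 28.5, 49.2 and 53.05 CPM on high-fat diet and at 3.53, 6.28 and 5.21 CPM on chow. High-fat animal 1 was the lowest of its group and still over 2-fold above the highest chow animal, and Sln changed by 2.87 ± 0.62 (adjusted p = 0.018). Sln lost its call without chow animals 1, 2 or 3 (2.68 to 3.06, adjusted p from 0.053 to 0.098). Ccl9, a chemokine, rose by 1.80 ± 0.40 (adjusted p = 0.010). Ccl9 lost its call without chow animals 1, 2 or 3 (1.74 to 1.94, adjusted p from 0.052 to 0.059).

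Rrad, a small GTPase that restrains calcium channels (chromosome 8 from 104628070 to 104631327), was at 19.6, 20.6, 12.2, 22.8 and 20.6 CPM on high-fat diet and at 1.96, 4.22 and 4.37 CPM on chow. Rab15, a Rab GTPase of endosomal recycling, was at 7.15, 10.6, 6.47, 10.8 and 8.71 CPM on high-fat diet and at 1.18, 2.34 and 1.43 CPM on chow. All high-fat libraries were above all chow libraries for both, with changes of 2.43 ± 0.44 (adjusted p = 0.0053) and 2.40 ± 0.37 (adjusted p = 0.00030), and both calls held whichever knockout was left out. Tubb6, a beta-tubulin (1.57 ± 0.22, adjusted p = 7.0e-05), also held in every such fit. Tnfrsf12a, the receptor Fn14 for the cytokine TWEAK, was at 19.4, 15.8, 9.31, 17.98 and 14.3 CPM on high-fat diet and at 7.46, 4.03 and 3.19 CPM on chow and rose by 1.66 ± 0.39 (adjusted p = 0.028). Tnfrsf12a lost its call without high-fat animals 1, 2 or 4 or chow animals 2 or 3 (1.42 to 1.64, adjusted p from 0.054 to 0.16). BC048679 rose by 2.53 ± 0.49 (adjusted p = 0.0078). BC048679 lost its call without chow animal 3 (2.39, adjusted p = 0.069). Ankrd1 and Xirp1 complete the 12 and are described with the sarcomere genes.

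The change with the smallest p was a fall. Spns2, the transporter that exports sphingosine-1-phosphate (chromosome 11 from 72451638 to 72489904), was at 8.74, 8.96, 9.78, 9.89 and 12.6 CPM on high-fat diet and at 28.8, 34.7 and 29.6 CPM on chow, 2 tight groups with no overlap, and changed by -1.63 ± 0.15 (adjusted p = 1.3e-08). Cep85l, a centrosomal protein, was at 10.6, 11.0, 5.68, 10.3 and 7.62 CPM on high-fat diet and at 26.3, 27.9 and 24.8 CPM on chow, again without overlap, and changed by -1.54 ± 0.16 (adjusted p = 3.3e-07). The lowest change among the 12 was that of Chac1, an enzyme that degrades glutathione (chromosome 2 from 119351229 to 119354381), which was at 9.83, 6.04, 9.39, 14.4 and 15.4 CPM on high-fat diet and at 74.4, 36.3 and 69.5 CPM on chow. Chow animal 2 was the lowest of the chow group for Chac1 but above all high-fat animals, and the change was -2.45 ± 0.40 (adjusted p = 0.0036). Fkbp5, a co-chaperone of the glucocorticoid receptor, was at 6.85, 12.2, 14.4, 12.7 and 11.6 CPM on high-fat diet and at 32.0, 22.5 and 54.7 CPM on chow and fell by 1.65 ± 0.29 (adjusted p = 0.0041). Tgif1, a homeobox repressor, was at 1.89, 2.11, 3.08, 3.46 and 6.07 CPM on high-fat diet and at 7.75, 7.78 and 14.4 CPM on chow and fell by 1.57 ± 0.26 (adjusted p = 0.00064). Both sets of groups were apart, with chow animal 3 the highest.

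Of the other lowest genes, Mlf1 changed by -1.26 ± 0.19 (adjusted p = 0.00064), Mfsd7b, a haem exporter, by -1.50 ± 0.27 (adjusted p = 0.0038), and Tfcp2l1, a transcription factor of the grainyhead family, by -1.27 ± 0.25 (adjusted p = 0.0032). Gpx3, a secreted glutathione peroxidase, was at 83.98, 62.01, 68.7, 63.4 and 67.6 CPM on high-fat diet and at 222, 93.1 and 214 CPM on chow. Chow animal 2 lay much nearer to the high-fat group than the other chow animals did, and the change was -1.35 ± 0.23 (adjusted p = 0.0038). These 4 calls, and those of the preceding 5 genes, held whichever knockout was left out. Slc43a1, a transporter of neutral amino acids, was at 2.58, 3.06, 2.92, 2.51 and 3.10 CPM on high-fat diet and at 8.25, 2.81 and 12.5 CPM on chow, so that chow animal 2 lay inside the high-fat range, and its change was -1.47 ± 0.31 (adjusted p = 0.0058). Slc43a1 lost its call without chow animal 3 (-0.95, adjusted p = 0.16). Outside the rule for named genes, and chosen after its values were seen, 8430408G22Rik (Depp1 in RefSeq) had the lowest change of all genes that passed. It was at 6.25, 11.9, 14.7, 29.1 and 17.9 CPM on high-fat diet and at 224.2, 47.6 and 328.9 CPM on chow. Its change of -3.64 ± 0.52 (adjusted p = 0.0013) held in all 8 fits without 1 knockout.

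**Figure D3:**
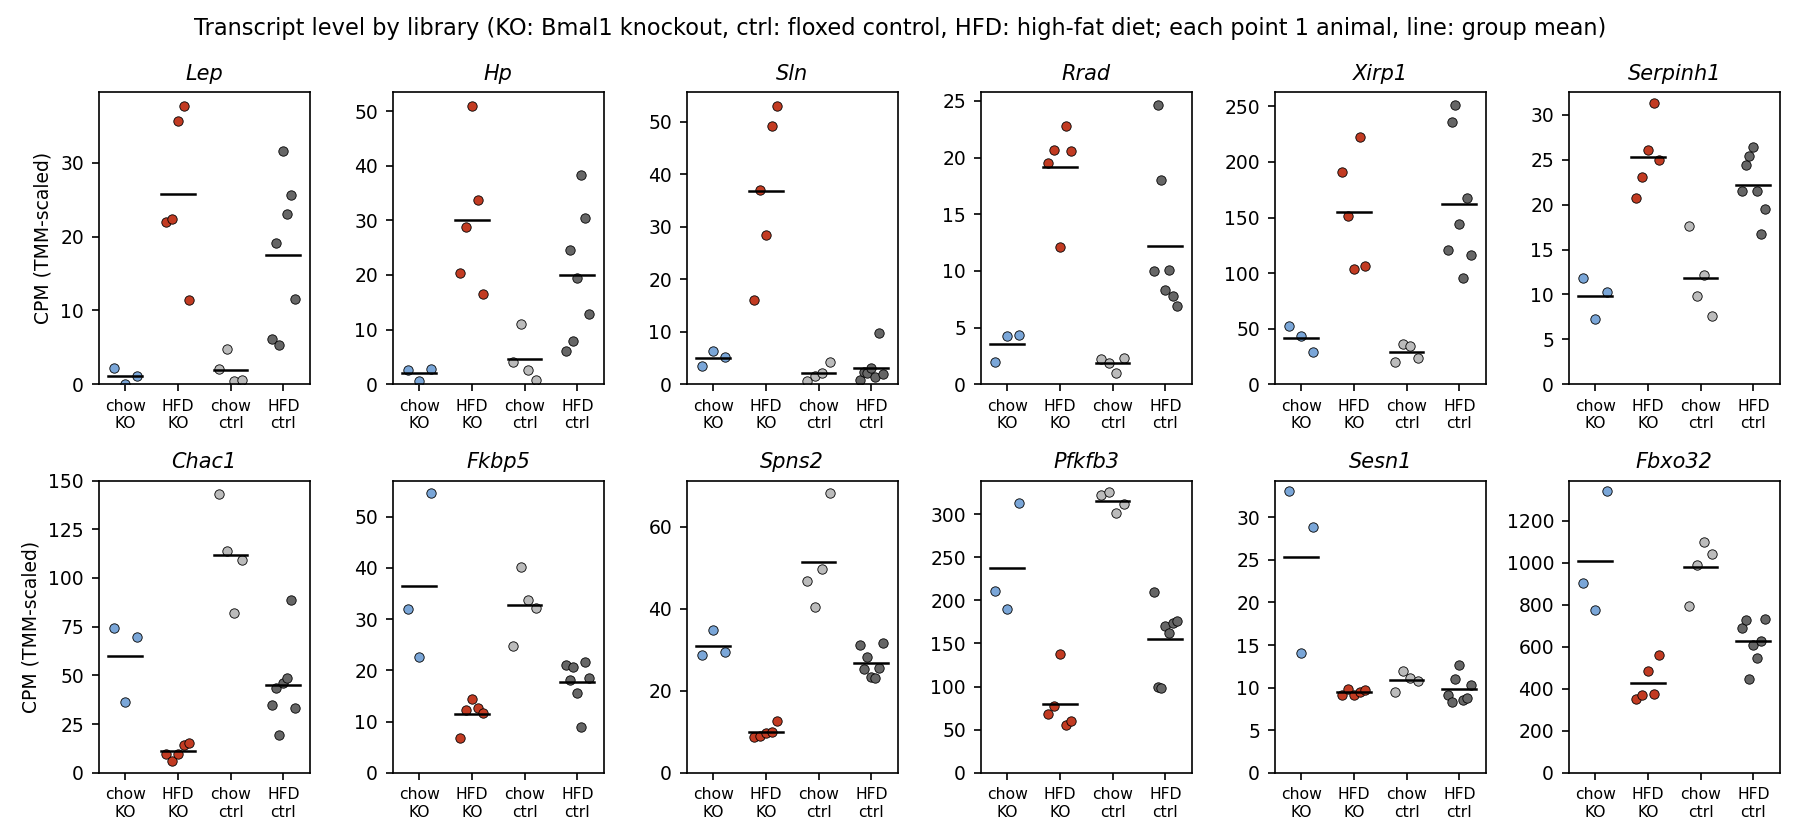
CPM of 12 genes by library in the 4 groups (y axis from 0, x axis the groups, points animals, lines group means). In the knockouts (first 2 groups of each panel) the diets do not overlap for any of the 12. All 12 were picked from genes that passed, so this adds no support to their calls. Sln is low in both control groups and Sesn1 is high in the chow knockouts alone.

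Of 40 collagen and matrix genes tested, 14 rose and none fell, and the median change of the list was 0.52, against -0.01 over all tested genes. Serpinh1, the collagen chaperone HSP47 (chromosome 7 from 99345376 to 99353239), was at 20.7, 23.1, 26.1, 31.3 and 24.98 CPM on high-fat diet and at 11.9, 7.22 and 10.2 CPM on chow and changed by 1.37 ± 0.21 (adjusted p = 0.00028). Col4a1, a chain of the basement membrane collagen IV, was at 66.1, 63.7, 65.1, 87.2 and 70.99 CPM on high-fat diet and at 35.3, 44.6 and 40.6 CPM on chow (0.81 ± 0.14, adjusted p = 0.00064), and Fbn1, the microfibril protein fibrillin-1, was at 35.4, 31.7, 37.7, 37.8 and 35.4 CPM on high-fat diet and at 17.7, 24.2 and 18.1 CPM on chow (0.83 ± 0.14, adjusted p = 0.00065). None of the 3 overlapped between diets, nor did Col6a3, a chain of collagen VI that rose by 0.80 ± 0.15 (adjusted p = 0.0013). Timp1, an inhibitor of matrix proteases, had the highest change of the list, 4.05 ± 0.84 (adjusted p = 0.0043), from a low level: it was at 1.23 to 2.11 CPM on high-fat diet and at 0.196, 0.0938 and 0 CPM on chow. Without chow animal 3, where Timp1 had no count, its adjusted p was 0.053. The matrix count was 5 of 40 without chow animal 3 and 8 without chow animal 1, with medians of 0.60 and 0.50.

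Of 10 fibroblast markers 2 rose, Ly6a (0.63 ± 0.14, adjusted p = 0.0084) and Dpt, dermatopontin (0.60 ± 0.16, adjusted p = 0.036), and the list's median was 0.35. The share of all tested genes that rose was 1.72%. Summed fibroblast markers were 1240 to 1503 CPM on high-fat diet and 1083 to 1258 CPM on chow, so that the groups overlapped, and no marker was at 0. Of 9 markers of pericytes and smooth muscle, Tagln, the actin-binding transgelin, was at 22.7, 24.7, 26.7, 24.5 and 26.6 CPM on high-fat diet and at 12.6, 16.7 and 12.9 CPM on chow and rose by 0.84 ± 0.17 (adjusted p = 0.0038), and Acta2, smooth muscle actin, rose by 0.80 ± 0.19 (adjusted p = 0.021). Ly6a lost its call without chow animal 2 (0.49, adjusted p = 0.094). Acta2 lost its call without chow animal 3 (0.65, adjusted p = 0.15). Dpt lost its call without high-fat animals 1, 3 or 5 or chow animals 2 or 3 (0.45 to 0.61, adjusted p from 0.071 to 0.19). Endothelial markers (12 tested, median 0.05), satellite cell markers (8, median -0.07), tendon markers (8, median 0.22) and nerve markers (10, median -0.33) held no gene that passed. In whole muscle, more cells of a type and more RNA per cell cannot be told apart. The part of these cells in the matrix changes was not tested.

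Of the macrophage markers tested, 2 rose and none fell, where 1.72% of all tested genes rose. Of 12, Csf1r, the receptor for the growth factor CSF1, was at 10.4, 11.9, 12.7, 16.7 and 12.1 CPM on high-fat diet and at 7.17, 7.32 and 3.78 CPM on chow and rose by 1.08 ± 0.25 (adjusted p = 0.014), and C1qb, a subunit of complement C1q, rose by 1.02 ± 0.26 (adjusted p = 0.019). The list's median was 0.78, with 11 of 12 above 0, and its spread between animals of a diet was 0.31. Summed macrophage markers were 93.5 to 143.1 CPM on high-fat diet and 122.9, 52.1 and 59.4 CPM on chow, where the highest value was that of chow animal 1, the library rich in lymphocyte transcripts. Without it 5 of 12 rose and the median was 1.21, and without chow animal 3 none did and the median was 0.75. Leaving out high-fat animal 1 gave 4, and leaving out high-fat animal 4 or chow animal 2 gave 1. C1qb lost its call without high-fat animal 4 or chow animals 2 or 3 (0.88 to 0.96, adjusted p from 0.065 to 0.13). Csf1r lost its call without chow animal 3 (0.82, adjusted p = 0.14). Pf4, a chemokine of platelets and some macrophages, belongs to the list of neutrophil and platelet markers, of which 3 of 10 could be tested. It was at 12.1, 16.4, 17.6, 16.96 and 14.1 CPM on high-fat diet and at 6.97, 6.57 and 5.80 CPM on chow, 2 groups with no overlap. Pf4 rose by 1.26 ± 0.21 (adjusted p = 0.00063), a call that held whichever knockout was left out. The other 2, S100a8 (1.19, adjusted p = 0.40) and S100a9 (0.08, adjusted p = 0.97), did not pass. Of the 14 lymphocyte markers 3 could be tested and none passed.

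Of 28 interferon-induced and antigen presentation genes tested, 6 rose and none fell (median 0.17). The list's spread between animals of a diet was 0.20. Ifitm3, a membrane protein that blocks virus entry, was at 64.2, 60.2, 57.7, 75.9 and 55.95 CPM on high-fat diet and at 30.1, 38.8 and 32.5 CPM on chow, with no overlap, and rose by 0.89 ± 0.13 (adjusted p = 8.0e-05). Ifit1, an RNA-binding antiviral protein, was at 3.18, 2.65, 3.23, 3.22 and 3.81 CPM on high-fat diet and at 0.393, 0.750 and 0.588 CPM on chow and rose by 2.45 ± 0.46 (adjusted p = 0.0017), from a level under 1 CPM. Ifi44 rose by 2.10 ± 0.45 (adjusted p = 0.0064) and Isg15, the ubiquitin-like modifier, by 2.03 ± 0.53 (adjusted p = 0.026), and high-fat animal 3, at 0.710 CPM of Isg15, lay within the chow range. Gbp3 and Oasl2 were the other 2. Ifitm3 and Ifit1 passed whichever knockout was left out, 2 genes of the list passed without chow animal 3 and 3 without high-fat animal 4. Without chow animal 1 the count was 5 and the median 0.77. Ifi44 lost its call without chow animals 2 or 3 (1.84 to 2.11, adjusted p from 0.0504 to 0.057). Isg15 lost its call without high-fat animals 1, 2 or 4 or chow animals 2 or 3 (1.79 to 1.97, adjusted p from 0.055 to 0.16).

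Of 12 adipocyte markers, Lep and Fabp4, the adipocyte fatty acid binding protein, rose and none fell, and 8 of the 12 had a log2 difference above 0 (median 0.49). The list's spread between animals of a diet was 0.45. Fabp4 was at 312, 368, 326, 317 and 224 CPM on high-fat diet and at 217, 124 and 141 CPM on chow, so that high-fat animal 5 was just above chow animal 1, and its change was 0.95 ± 0.23 (adjusted p = 0.031). Fabp4 lost its call without high-fat animals 1, 2, 3 or 4 or chow animals 2 or 3 (0.78 to 0.94, adjusted p from 0.054 to 0.15). The log2 difference was 1.54 ± 0.74 (adjusted p = 0.33) for Adipoq, adiponectin, -1.35 ± 0.71 (adjusted p = 0.38) for Cfd, adipsin, and -2.31 ± 0.69 (adjusted p = 0.090) for Cyp2e1, a cytochrome, none of which passed. Summed adipocyte markers were 352.6 to 566.2 CPM on high-fat diet and 462.7, 207.7 and 238.8 CPM on chow, again highest in chow animal 1. In the high-fat group 4 of 5 libraries had all 12 markers above 0, as did chow animals 1 and 3, while chow animal 2 had 2 at 0. Without chow animal 1 the median was 0.88, and without chow animal 3 it was 0.53 with no marker called. The part of fat cells in the rise of Lep was not tested.

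Genes of the strained sarcomere and Z-disc, many of them known to answer stretch or damage, rose in 7 of 26 cases and fell in none, with a median of 0.41. Xirp1, an actin-binding protein of the repairing fibre (chromosome 9 from 120013755 to 120023598), was at 191, 152, 103, 223 and 107 CPM on high-fat diet and at 52.3, 43.05 and 28.6 CPM on chow and changed by 1.91 ± 0.38 (adjusted p = 0.011). Flnc, the muscle filamin that crosslinks actin at the Z-disc, was at 289, 307, 231, 391 and 261 CPM on high-fat diet and at 181, 144 and 134 CPM on chow and changed by 0.96 ± 0.19 (adjusted p = 0.0084). Klhl41, a ubiquitin ligase adaptor that stabilises the thin filament, differed little between animals of a diet, at 418, 409, 385, 395 and 366 CPM on high-fat diet and at 283, 284 and 270.4 CPM on chow, and changed by 0.50 ± 0.09 (adjusted p = 0.0017). For all 3 the diets did not overlap. Ankrd1, an ankyrin repeat protein bound to titin, was at 54.3, 74.2, 50.9, 62.9 and 49.2 CPM on high-fat diet and at 13.2, 13.2 and 10.2 CPM on chow and changed by 2.26 ± 0.54 (adjusted p = 0.033). Mustn1 and Klhl40 rose with them, beside Rrad. Rrad and Klhl41 passed in every fit without 1 knockout, 2 of the list passed without chow animal 3 and 3 without chow animal 2, and 4 without high-fat animal 1 or 4. Xirp1 lost its call without chow animal 3 (1.70, adjusted p = 0.087). Flnc lost its call without chow animals 2 or 3 (0.87 to 0.90, adjusted p from 0.0504 to 0.069). Ankrd1 lost its call without high-fat animals 1, 2 or 4 or chow animals 1, 2 or 3 (2.15 to 2.32, adjusted p from 0.051 to 0.16).

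Heat shock chaperones, which refold damaged proteins and are switched on by the factor HSF1 at heat shock elements, rose in 4 of 31 cases (median 0.19, 24 above 0). Over all tested genes 1.72% rose. Dnaja4, a partner of HSP70 (chromosome 9 from 54698873 to 54716315), was at 97.1, 92.4, 64.2, 117 and 85.4 CPM on high-fat diet and at 41.9, 41.9 and 24.4 CPM on chow and changed by 1.34 ± 0.26 (adjusted p = 0.0069). Bag3, which guides HSP70 clients of the Z-disc to autophagy (chromosome 7 from 128523616 to 128546981), was at 90.6, 109.9, 85.9, 117 and 98.6 CPM on high-fat diet and at 68.1, 82.3 and 67.7 CPM on chow and changed by 0.47 ± 0.13 (adjusted p = 0.033). Cryab, the alpha-B crystallin that protects desmin and titin, changed by 1.06 ± 0.27 (adjusted p = 0.045), and Hspb2, a small heat shock protein, by 0.52 ± 0.14 (adjusted p = 0.026). Hspb2 and Cryab overlap on opposite strands, and the sources used here do not state the strand setting of the counting, so the reads of one may be counted with the other. The inducible HSP70 genes Hspa1a and Hspa1b, near-identical copies whose tags may be split between them, had log2 differences of 0.90 ± 0.50 (adjusted p = 0.41) and 1.12 ± 0.59 (adjusted p = 0.38) and did not pass. None of the 4 calls held in all fits without 1 knockout, and none of them without chow animal 3, where the list's median was 0.24. The count was 1 without high-fat animal 2 or chow animal 1 and 2 without high-fat animal 1 or 4. Dnaja4 lost its call without chow animal 3 (1.13, adjusted p = 0.0502). Bag3 lost its call without high-fat animals 2, 4 or 5 or chow animals 1 or 3 (0.41 to 0.47, adjusted p from 0.051 to 0.18). Cryab lost its call without high-fat animals 1, 2 or 4 or chow animals 1, 2 or 3 (0.87 to 1.19, adjusted p from 0.060 to 0.20). Hspb2 lost its call without high-fat animals 1 or 2 or chow animals 1 or 3 (0.42 to 0.58, adjusted p from 0.059 to 0.15).

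Promoter windows were searched for the genes that the naming rule took from the heat shock, clock and glucocorticoid lists, of which 12 of 16 matched an entry of the RefSeq set by symbol. Other called members of these lists, such as Dusp1, were not searched. Among the called genes searched (Sesn1, Klf9, Fkbp5, Glul, Rora, Dnaja4 and Bag3), Dnaja4 and Bag3 are shown because a window of theirs holds a motif of its own list. The windows run from 250 bases before to 50 after the transcript start (RefSeq, GRCm38.p6, forward strand for both genes), at chr9:54699309-54699608 for Dnaja4 and chr7:128523333-128523632 for Bag3, and capitals mark the heat shock motif.
Dnaja4: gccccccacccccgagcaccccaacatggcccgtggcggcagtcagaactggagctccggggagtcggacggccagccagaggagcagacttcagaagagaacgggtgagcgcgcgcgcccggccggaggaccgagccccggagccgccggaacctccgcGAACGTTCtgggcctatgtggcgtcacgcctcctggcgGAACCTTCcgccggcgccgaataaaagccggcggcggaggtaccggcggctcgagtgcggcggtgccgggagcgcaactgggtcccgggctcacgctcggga
Bag3: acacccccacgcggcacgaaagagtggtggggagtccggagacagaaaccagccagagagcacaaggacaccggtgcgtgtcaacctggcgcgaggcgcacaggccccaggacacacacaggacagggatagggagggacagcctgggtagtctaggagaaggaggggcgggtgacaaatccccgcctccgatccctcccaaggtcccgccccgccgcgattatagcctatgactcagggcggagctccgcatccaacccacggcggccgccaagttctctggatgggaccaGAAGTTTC
The motif was searched as GAANNTTC and, inverted, as TTCNNGAA, both of which read the same on either strand. Dnaja4 has 2 windows in the set: the other, at chr9:54699033-54699332, holds no match, and the one shown holds 2, starting at -90 and -52 from the start site, and Bag3 holds 1, at 42 after it. Either form stands in 15.1% of all 32851 windows in the RefSeq set and in 11.8% of the 11983 windows of tested genes. A match is a run of letters, not a measured site.

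Of 27 genes of the endoplasmic reticulum and integrated stress responses 4 rose and 2 fell (median 0.27). Hsp90b1, the chaperone GRP94, was at 91.5, 92.97, 85.7, 92.2 and 93.6 CPM on high-fat diet and at 64.98, 60.1 and 62.3 CPM on chow. Hspa5, the chaperone BiP, was at 152, 170.4, 129.7, 161 and 150.2 CPM on high-fat diet and at 98.6, 106 and 102 CPM on chow. Both were higher in every high-fat library, by 0.55 ± 0.11 (adjusted p = 0.0033) and 0.58 ± 0.12 (adjusted p = 0.0052), and Manf and Atf5 rose too, by 0.74 ± 0.18 (adjusted p = 0.014) and 0.54 ± 0.15 (adjusted p = 0.043). Ppp1r15a, the GADD34 subunit that ends the translational block, was at 20.2, 16.1, 14.2, 17.04 and 18.4 CPM on high-fat diet and at 28.3, 28.8 and 41.4 CPM on chow, lower in every high-fat library (-0.94 ± 0.15, adjusted p = 0.00026), as was Chac1. These 4 genes (Hsp90b1, Hspa5, Ppp1r15a and Chac1) passed whichever knockout was left out, and without chow animal 3 they were all that passed.

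Genes that glucocorticoids are known to induce fell in 5 of 20 cases and rose in 1, with a median of -0.30 that was -0.12 without chow animal 3. The list's spread between animals of a diet was 0.28, about as large as its median. Klf9, a zinc finger factor that the receptor and the clock both drive, was at 236, 233, 261, 314 and 289.8 CPM on high-fat diet and at 363, 463 and 495 CPM on chow, with no overlap, and changed by -0.72 ± 0.13 (adjusted p = 0.00073). Sesn1, a sestrin that restrains the growth kinase mTORC1 (chromosome 10 from 41809935 to 41908424), was at 9.13, 9.78, 9.07, 9.50 and 9.74 CPM on high-fat diet and at 33.1, 14.1 and 28.9 CPM on chow. The 5 high-fat animals lay within 1 CPM of each other and chow animal 2 was nearest to them, and the change was -1.42 ± 0.18 (adjusted p = 1.2e-05). Glul, glutamine synthetase, was at 49.4, 74.5, 69.04, 83.0 and 62.7 CPM on high-fat diet and at 142, 116 and 194 CPM on chow and changed by -1.15 ± 0.22 (adjusted p = 0.0064). Glul lost its call without chow animal 3 (-0.92, adjusted p = 0.059). Zbtb16 fell by 0.56 ± 0.14 (adjusted p = 0.014), and Fkbp5 has been described. Only 3 genes of the list, Klf9, Sesn1 and Fkbp5, passed whichever knockout was left out. The call of Zbtb16 did not hold in all 8 of these fits. Dusp1, a phosphatase that ends MAP kinase signals and is an early gene as well, rose by 0.80 ± 0.21 (adjusted p = 0.042). Dusp1 lost its call without high-fat animals 1, 2, 4 or 5 or chow animals 1, 2 or 3 (0.74 to 0.89, adjusted p from 0.063 to 0.15). Tsc22d3, Sgk1 and Ddit4, further known targets, had log2 differences of -0.30 ± 0.17 (adjusted p = 0.42), -0.38 ± 0.39 (adjusted p = 0.71) and -0.16 ± 0.70 (adjusted p = 0.95) and did not pass. The glucocorticoid half-site TGTTCT, on either strand, was not in the windows of Sesn1, Klf9, Fkbp5 or Glul. It stands in 19.0% of all windows and in 12.3% of the windows of tested genes.

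Among genes of protein breakdown, 2 of 26 atrophy and autophagy genes fell, where 1.57% of all tested genes did. None rose and the median was -0.23. Fbxo32, the muscle ubiquitin ligase atrogin-1 (chromosome 15 from 58175879 to 58214932), was at 351, 370.1, 485, 377 and 562 CPM on high-fat diet and at 905, 776 and 1342 CPM on chow, with no overlap, and changed by -1.23 ± 0.19 (adjusted p = 0.00080). The call held in every fit without 1 knockout. Trim63, the ligase MuRF1, had a log2 difference of -1.04 ± 0.34 (adjusted p = 0.12), and Foxo1, a factor that drives both ligases, one of -0.59 ± 0.18 (adjusted p = 0.056), neither of which passed. Eif4ebp1, the translation brake 4E-BP1, was at 34.1, 26.8, 34.5, 36.1 and 43.8 CPM on high-fat diet and at 49.5, 52.1 and 63.8 CPM on chow and fell by 0.65 ± 0.17 (adjusted p = 0.030). Eif4ebp1 lost its call without high-fat animals 1, 2, 3 or 4 or chow animals 2 or 3 (-0.70 to -0.53, adjusted p from 0.056 to 0.20). No gene of 34 for the proteasome (median 0.06) or of 62 for ribosomal proteins (median -0.04) passed.

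Fatty acid uptake and oxidation genes rose in 8 of 29 cases, with none falling and a median of 0.26. Fabp3, the muscle fatty acid binding protein (chromosome 4 from 130308595 to 130315463), was at 1101, 1370, 693, 1377 and 892 CPM on high-fat diet and at 409, 394 and 395 CPM on chow. The 3 chow animals were within 15 CPM of each other, all high-fat animals were far above them, and the change was 1.45 ± 0.25 (adjusted p = 0.0046). Ech1, which shifts double bonds of unsaturated fatty acids, was at 214, 219, 157, 245 and 162 CPM on high-fat diet and at 115, 90.4 and 109.8 CPM on chow and rose by 0.92 ± 0.15 (adjusted p = 0.00080). Decr1, which reduces such bonds, was at 96.9, 98.5, 64.4, 94.9 and 69.8 CPM on high-fat diet and at 55.5, 52.5 and 53.4 CPM on chow and rose by 0.66 ± 0.13 (adjusted p = 0.0039). Neither overlapped between diets. Etfb, a subunit of the electron carrier that takes up electrons of beta-oxidation, rose by 0.47 ± 0.12 (adjusted p = 0.019). The other 4 were Slc25a20, the carnitine carrier (0.49 ± 0.13, adjusted p = 0.027), Acads (0.53 ± 0.13, adjusted p = 0.020), Acadvl (0.49 ± 0.14, adjusted p = 0.0497) and Hadha (0.46 ± 0.13, adjusted p = 0.035), all of the beta-oxidation path. Fabp3, Ech1 and Decr1 passed whichever knockout was left out, and 3 to 5 of the list passed without high-fat animal 1, 2 or 4 or any 1 chow animal. Etfb lost its call without high-fat animals 1 or 4 or chow animals 2 or 3 (0.40 to 0.47, adjusted p from 0.052 to 0.098).

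Of 25 PPAR targets 2 rose and 2 fell (median 0.08), where 1.72% of all tested genes rose and 1.57% fell. Plin2, a coat protein of lipid droplets, was at 19.7, 20.6, 20.8, 24.8 and 15.7 CPM on high-fat diet and at 11.5, 12.6 and 11.3 CPM on chow and rose by 0.79 ± 0.16 (adjusted p = 0.0045), and Mgll, monoglyceride lipase, rose by 0.87 ± 0.18 (adjusted p = 0.0053). Plin4, another droplet coat, was at 85.7, 99.5, 104, 123 and 105 CPM on high-fat diet and at 139, 149 and 166 CPM on chow and fell by 0.55 ± 0.13 (adjusted p = 0.012), and Vldlr, the VLDL receptor, was at 153, 124, 136, 122 and 149.5 CPM on high-fat diet and at 172, 235 and 225 CPM on chow and fell by 0.62 ± 0.12 (adjusted p = 0.0024). All 4 were apart between diets. Of 21 genes of fatty acid and triglyceride synthesis, Lpin1, the phosphatidate phosphatase lipin-1, was at 162, 159, 173, 158 and 197 CPM on high-fat diet and at 256, 326 and 303 CPM on chow and changed by -0.80 ± 0.11 (adjusted p = 5.0e-05), and Gpd1, glycerol-3-phosphate dehydrogenase, fell by 0.47 ± 0.11 (adjusted p = 0.010). Hsd17b7 was the 1 gene of 19 for sterol synthesis that changed (-0.86 ± 0.24, adjusted p = 0.039), where 1.57% of all tested genes fell. Plin2, Vldlr and Lpin1 held in every fit without 1 knockout. Mgll lost its call without chow animal 3 (0.72, adjusted p = 0.059). Plin4 lost its call without chow animal 3 (-0.47, adjusted p = 0.12). Gpd1 lost its call without chow animal 3 (-0.35, adjusted p = 0.17). Hsd17b7 lost its call without high-fat animals 1, 3, 4 or 5 or chow animal 3 (-0.87 to -0.55, adjusted p from 0.060 to 0.38).

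In insulin signalling, 2 of 27 genes rose and 2 fell (median -0.12), where 1.72% of all tested genes rose and 1.57% fell. The insulin receptor substrates went opposite ways. Irs1 was at 34.7, 43.3, 39.1, 38.8 and 45.2 CPM on high-fat diet and at 24.05, 29.1 and 22.2 CPM on chow and rose by 0.68 ± 0.14 (adjusted p = 0.0036). Irs2 was at 12.5, 10.1, 10.02, 11.6 and 7.81 CPM on high-fat diet and at 13.5, 22.2 and 16.2 CPM on chow and fell by 0.74 ± 0.16 (adjusted p = 0.0068). Neither overlapped between diets. Tbc1d4 (AS160), which holds GLUT4 vesicles inside the fibre until AKT phosphorylates it (chromosome 14 from 101442360 to 101609191), was at 23.4, 32.9, 31.5, 32.7 and 28.7 CPM on high-fat diet and at 54.3, 38.3 and 51.3 CPM on chow and changed by -0.68 ± 0.13 (adjusted p = 0.0013), a call kept without any 1 knockout. Grb14, an adaptor that restrains the insulin receptor, was at 26.7, 28.8, 18.7, 28.4 and 17.2 CPM on high-fat diet and at 12.3, 20.5 and 11.2 CPM on chow, with chow animal 2 inside the high-fat range, and changed by 0.71 ± 0.20 (adjusted p = 0.038). Irs1 lost its call without chow animal 3 (0.60, adjusted p = 0.055). Irs2 lost its call without chow animal 2 (-0.53, adjusted p = 0.11). Grb14 lost its call without high-fat animals 1, 2 or 4 or chow animals 1 or 3 (0.55 to 0.67, adjusted p from 0.078 to 0.24). The log2 difference was -0.35 ± 0.14 (adjusted p = 0.18) for Slc2a4, the gene of GLUT4, and -0.27 ± 0.12 (adjusted p = 0.24) for Insr, the insulin receptor, and neither passed.

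Of 23 glycolysis genes 3 fell and none rose (median -0.12). Pfkfb3, which makes the activator of phosphofructokinase (chromosome 2 from 11471433 to 11554077), was at 67.9, 77.1, 137, 54.9 and 60.5 CPM on high-fat diet and at 211, 190.02 and 313 CPM on chow. High-fat animal 3 stood well above the rest of its group and still below all chow animals, and the change was -1.58 ± 0.29 (adjusted p = 0.0064). Slc16a3, the lactate exporter MCT4, was at 93.1, 73.1, 82.2, 65.2 and 112 CPM on high-fat diet and at 108, 148 and 155 CPM on chow, with high-fat animal 5 above chow animal 1, and changed by -0.68 ± 0.14 (adjusted p = 0.0051). Pfkfb1 fell by 0.61 ± 0.14 (adjusted p = 0.0082). Pfkfb3 lost its call without chow animal 3 (-1.33, adjusted p = 0.061). Slc16a3 lost its call without chow animal 3 (-0.58, adjusted p = 0.070). Pfkfb1 lost its call without chow animal 2 (-0.47, adjusted p = 0.095). Pfkm, muscle phosphofructokinase, had a log2 difference of -0.30 ± 0.11 (adjusted p = 0.16) and Hk2, hexokinase, one of 0.47 ± 0.27 (adjusted p = 0.43), and neither passed.

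Of 19 glycogen genes 5 fell, none rose and the median was -0.29. Ppp1r3a, which targets a phosphatase to glycogen, was at 167, 125, 157, 119 and 145 CPM on high-fat diet and at 196, 186 and 229 CPM on chow. Phka1, a regulatory subunit of phosphorylase kinase, was at 132, 121, 132, 99.4 and 135 CPM on high-fat diet and at 139, 230.2 and 190.1 CPM on chow. Neither overlapped, and the changes were -0.51 ± 0.11 (adjusted p = 0.0063) and -0.59 ± 0.13 (adjusted p = 0.0092). Pygm, muscle glycogen phosphorylase, changed by -0.50 ± 0.14 (adjusted p = 0.036), while Pgm2 (-0.50 ± 0.14, adjusted p = 0.034) had chow animal 1 inside the high-fat range. None passed without chow animal 3 (median -0.26), 1 passed without chow animal 2 (median -0.24), and 2 passed without high-fat animal 2 or 4. Ppp1r3a lost its call without chow animal 3 (-0.42, adjusted p = 0.11). Phka1 lost its call without chow animals 2 or 3 (-0.57 to -0.42, adjusted p from 0.066 to 0.11). Pgm2 lost its call without high-fat animals 2 or 4 or chow animals 2 or 3 (-0.47 to -0.38, adjusted p from 0.086 to 0.18). Gys1, glycogen synthase, had a log2 difference of 0.16 ± 0.19 (adjusted p = 0.74) and did not pass.

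None of 72 nuclear genes of the respiratory chain and ATP synthase passed, and 59 of them were above 0 with a median of 0.13 and a range from -0.10 to 0.39. None of 30 TCA cycle genes passed (median 0.03). Of 23 genes that break down branched-chain amino acids, Aldh6a1 (-0.49 ± 0.12, adjusted p = 0.012) and Ivd (-0.42 ± 0.12, adjusted p = 0.040) fell, and the median was -0.23. Aldh6a1 lost its call without chow animal 3 (-0.40, adjusted p = 0.15). Ivd lost its call without high-fat animals 2, 3 or 5 or chow animals 1 or 3 (-0.44 to -0.36, adjusted p from 0.056 to 0.19). The higher share of mitochondrial transcripts on high-fat diet stood beside these values, and its part in them was not tested. With those transcripts left out of the fit, 435 genes passed.

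Clock genes held 1 call. None of 13 E-box outputs of the clock passed (median -0.11). Per2, a clock repressor, was at 1.49, 0.272, 1.10, 1.26 and 0.581 CPM on high-fat diet and at 2.36, 2.06 and 2.35 CPM on chow with a log2 difference of -1.29 ± 0.40 (adjusted p = 0.065). Nr1d1, the gene of REV-ERB alpha, was at 21.7, 17.997, 23.5, 18.6 and 18.3 CPM on high-fat diet and at 30.6, 21.2 and 28.5 CPM on chow, groups that overlapped, with a log2 difference of -0.42 ± 0.17 (adjusted p = 0.22). Dbp, a PAR-bZIP factor driven straight from E-boxes, had one of 0.45 ± 0.53 (adjusted p = 0.75). Of 7 core activators and REV-ERB-repressed genes, Rora, which drives Arntl, was at 99.96, 101, 111, 81.9 and 112 CPM on high-fat diet and at 125, 137 and 151 CPM on chow and fell by 0.45 ± 0.12 (adjusted p = 0.034). Rora lost its call without high-fat animals 1, 2 or 4 or chow animals 2 or 3 (-0.46 to -0.37, adjusted p from 0.060 to 0.22). Harvest time was not given, so the phase of the day at which these levels were taken is unknown.

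HIF-induced genes, which the study's title points to, gave 2 rises and 1 fall among 35 (median 0.13). Over all tested genes 1.72% rose and 1.57% fell. P4ha1, a prolyl hydroxylase that matures collagen, was at 23.03, 32.9, 32.03, 29.5 and 26.8 CPM on high-fat diet and at 16.1, 17.7 and 18.1 CPM on chow and rose by 0.74 ± 0.14 (adjusted p = 0.0021), also without any 1 knockout. Pfkfb3 fell, as given above. The log2 difference was 0.14 ± 0.19 (adjusted p = 0.80) for Vegfa, the angiogenic factor, 0.04 ± 0.14 (adjusted p = 0.93) for Pdk1, which shuts off pyruvate dehydrogenase, and -1.97 ± 0.65 (adjusted p = 0.097) for Slc2a3, the transporter GLUT3. None of these 3 passed.

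Genes of denervation and regeneration gave 4 rises among 18 (median 0.05). Myog, the muscle regulatory factor myogenin, was at 10.7, 11.3, 15.9, 16.6 and 15.2 CPM on high-fat diet and at 2.94, 8.16 and 5.88 CPM on chow, with no overlap, and rose by 1.30 ± 0.27 (adjusted p = 0.0051), a call kept without any 1 knockout. Mybph, a myosin binding protein, was at 177, 211, 249, 171 and 178 CPM on high-fat diet and at 89.5, 94.3 and 124 CPM on chow and rose by 0.94 ± 0.20 (adjusted p = 0.0096). Mybph lost its call without chow animals 1 or 2 (0.85 to 0.87, adjusted p from 0.056 to 0.061). Sln and Ankrd1 were the other 2. Without chow animal 1 the list gave 1 rise and 1 fall, and without chow animal 2 or 3 it gave 2 rises. Of 16 fast fibre genes Actn3, the alpha-actinin of fast fibres, was at 2094, 1593, 2518, 1606 and 2402 CPM on high-fat diet and at 3167, 2700 and 3497 CPM on chow and fell by 0.61 ± 0.14 (adjusted p = 0.0090), and Mylk2, the skeletal myosin light chain kinase, fell by 0.41 ± 0.11 (adjusted p = 0.027), with a list median of -0.20. The share of all tested genes that fell was 1.57%. Actn3 lost its call without chow animal 3 (-0.52, adjusted p = 0.11). Mylk2 lost its call without high-fat animals 1, 2 or 4 or chow animals 2 or 3 (-0.41 to -0.34, adjusted p from 0.058 to 0.21). None of 16 slow fibre genes passed (median -0.40, where the list's spread between animals of a diet was 0.54).

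Calls in the remaining lists were as follows. Of 27 NRF2 target and glutathione genes Gpx3 and Gclc, a subunit of the enzyme that starts glutathione synthesis (-0.66 ± 0.18, adjusted p = 0.029), fell. Gclc lost its call without high-fat animals 2, 3 or 5 or chow animals 1, 2 or 3 (-0.68 to -0.56, adjusted p from 0.060 to 0.14). Of 18 p53 targets Sesn1 fell. Of 24 immediate early genes Dusp1 rose and Myc, at 0.596, 1.09, 0.552, 0.942 and 1.29 CPM on high-fat diet and 3.73, 1.31 and 3.61 CPM on chow, fell by 1.66 ± 0.46 (adjusted p = 0.035). Myc lost its call without high-fat animals 1, 2, 3 or 4 or chow animals 1 or 3 (-1.74 to -1.44, adjusted p from 0.054 to 0.19).

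**Figure D4:**
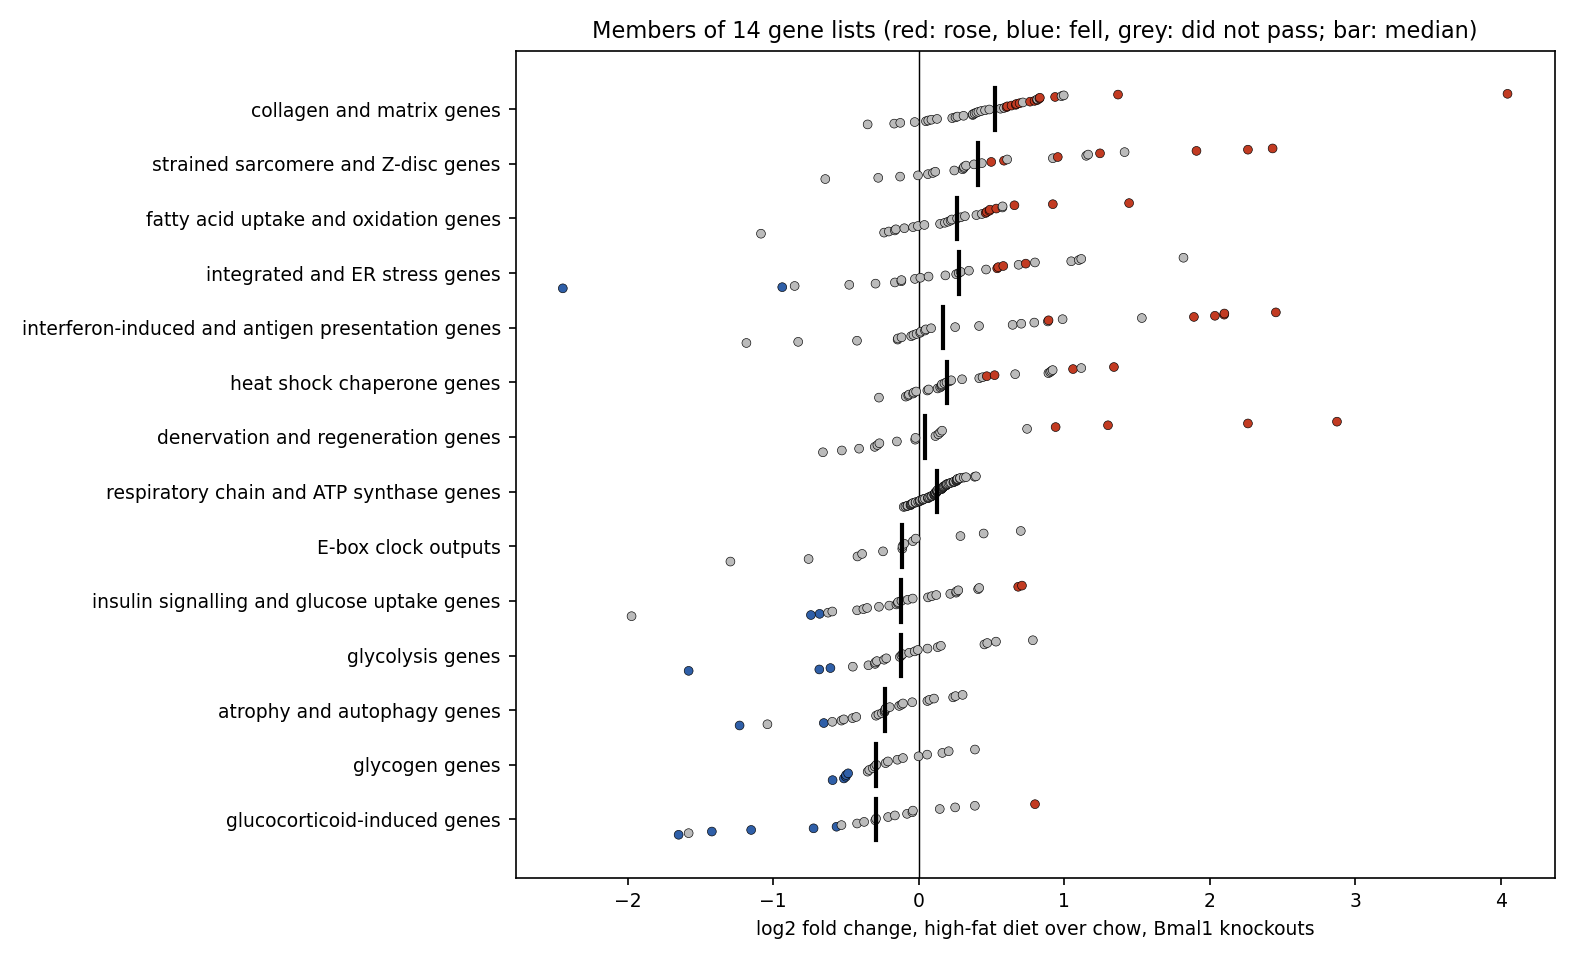
Log2 fold change of high-fat diet over chow in Bmal1 knockouts (x axis) for each tested member of 14 gene lists (y axis), with the median of each list as a bar. Called members lie to the right in the matrix, sarcomere and fatty acid lists and to the left in the glycogen, glycolysis and atrophy lists, and the respiratory chain genes lie between -0.10 and 0.39.

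The same diet contrast was read in the floxed controls, which share no animal with the knockouts. There 193 genes rose (1.51% of those tested) and 109 fell (0.854%). Both genotypes called 145 genes, 92 higher and 53 lower in both and none opposite, which is 34.6% of the knockout calls and 48.0% of the control calls. Of the 419 knockout calls 399 (95.2%) had the same sign in controls, where 65.2% of all tested genes did. Those that rose in knockouts had a median change of 0.48 in controls, and those that fell -0.33. In the other direction, genes called in controls had medians of 0.66 (higher) and -0.55 (lower) in knockouts. By list, 9 of 31 heat shock chaperones and 12 of 26 sarcomere genes rose in controls (medians 0.35 and 0.36), more than in knockouts. Of 40 matrix genes 12 rose there and of 29 fatty acid genes 5 (medians 0.38 and 0.28), fewer than in knockouts. Glucocorticoid-induced genes fell there in 3 of 20 cases and glycogen genes in 0 of 19. Differences of a list between genotypes were not tested. The count in controls, 302 in all, was 181 without chow control 3 and 195 without chow control 4, and with no scaling it was 107 higher and 602 lower, a setting that shifts the median of all genes to -0.18 in controls and to -0.09 in knockouts.

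The genes that led in controls were not always those that led in knockouts. Of the 8 highest in controls, Lep, Rrad, Xirp1, Ankrd1 and Rab15 rose in knockouts too. The log2 difference of Hspa1b was 3.40 ± 0.54 (adjusted p = 0.0037) in controls and 1.12 ± 0.59 (adjusted p = 0.38) in knockouts, that of Hspa1a 2.08 ± 0.42 (adjusted p = 0.015) and 0.90 ± 0.50 (adjusted p = 0.41), and that of Csrp3, a Z-disc protein, 2.22 ± 0.42 (adjusted p = 0.0099) and 1.41 ± 0.47 (adjusted p = 0.13). Of the 8 lowest in controls, Chac1 fell in both. Cyp2e1 and Cfd fell in controls by 3.26 ± 0.58 (adjusted p = 0.0072) and 2.75 ± 0.61 (adjusted p = 0.025). For Aqp4, a water channel of fast fibres, it was -1.45 ± 0.22 (adjusted p = 0.00021) in controls and -0.65 ± 0.26 (adjusted p = 0.19) in knockouts, and for Col4a4, a collagen IV chain, -1.55 ± 0.23 (adjusted p = 0.00021) and -0.01 ± 0.28 (adjusted p = 0.99). Inmt, Il6ra and Gadd45a also fell in controls and did not pass in knockouts (-0.98 ± 0.30, -0.28 ± 0.34 and -0.66 ± 0.24). The test of the difference passed for none of these genes.

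**Figure D5:**
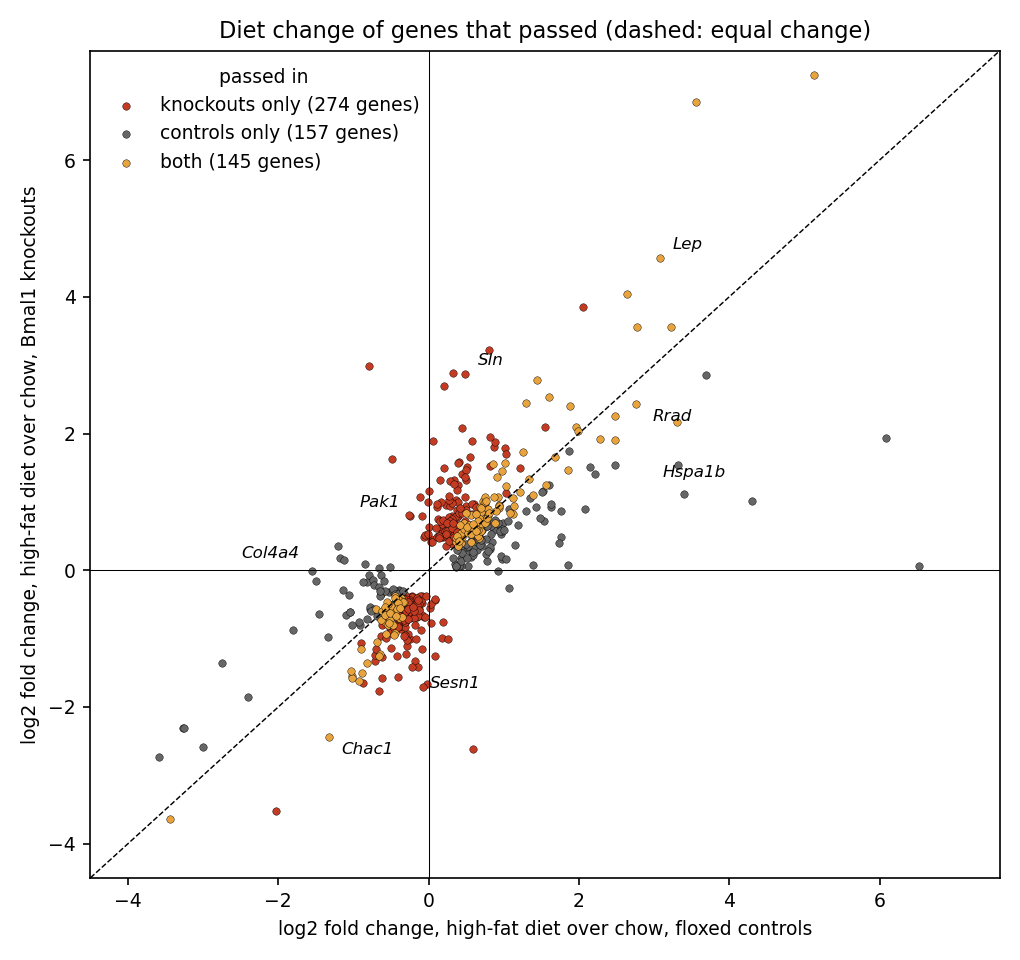
Log2 fold change of high-fat diet over chow in floxed controls (x axis) and Bmal1 knockouts (y axis) for every gene that passed in either (274 in knockouts only, 157 in controls only, 145 in both). Genes called in both lie in the upper right and lower left, and Sln, Sesn1 and Pak1 lie off the dashed line of equal change.

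Whether diet acts differently with and without BMAL1 was tested as the difference between the 2 diet effects. No gene of 12762 passed (0.0%) with edgeR, and DESeq2 called 3, Pak1, Popdc2 and Sesn1. At unadjusted p under 0.05 there were 575, no more than chance alone would give over that many tests. The smallest p were those of Pak1, Sesn1 and Cited2. Pak1, a kinase that RAC1 activates in insulin and contraction signals (chromosome 7 from 97788541 to 97912381), was at 36.1, 30.2, 42.6, 33.8 and 23.5 CPM on high-fat diet and at 17.2, 20.9 and 19.2 CPM on chow in knockouts, with no overlap. In controls it was at 16.4 to 23.6 CPM (median 17.7, n = 7) on high-fat diet and at 21.6, 21.2, 22.7 and 22.2 CPM on chow. Its log2 difference was 0.80 ± 0.15 (adjusted p = 0.0017) in knockouts and -0.25 ± 0.13 (adjusted p = 0.42) in controls, with 1.05 ± 0.20 (adjusted p = 0.069) between them. Over the 28 alternatives run for this test the difference ran from 0.94 to 1.15 with adjusted p from 0.00068 to 0.42, and passed in 6.

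Sesn1 in controls was at 8.29 to 12.6 CPM (median 9.19, n = 7) on high-fat diet and at 9.54, 11.9, 11.2 and 10.7 CPM on chow, close to the high-fat knockouts, so that all 3 chow knockouts stood above all 16 other libraries. Its log2 difference was -0.14 ± 0.17 (adjusted p = 0.80) in controls against -1.42 ± 0.18 in knockouts, and the difference of -1.28 ± 0.25 (adjusted p = 0.069) passed in 4 of the 28 alternatives (adjusted p from 0.00024 to 0.52). Cited2, a co-regulator that competes with HIF for the coactivators CBP and p300 (chromosome 10 from 17723218 to 17725674), was at 37.5, 29.7, 35.7, 35.4 and 29.9 CPM on high-fat diet and at 96.6, 50.7 and 70.3 CPM on chow in knockouts and at 55.1 to 72.8 CPM (median 63.5, n = 7) on high-fat diet and at 70.8, 79.5, 81.9 and 78.6 CPM on chow in controls. It fell in knockouts by 1.11 ± 0.13 (adjusted p = 3.1e-06) and stood at -0.29 ± 0.11 (adjusted p = 0.22) in controls, a difference of -0.82 ± 0.18 (adjusted p = 0.19), which passed in 2 of the 28 alternatives. Both passed without chow knockout 2 (Sesn1 -1.58, adjusted p = 0.00024, and Cited2 -1.03, adjusted p = 0.0021). Pak1 passed without high-fat knockout 5 (1.15, adjusted p = 0.0051) or high-fat control 5 (1.11, adjusted p = 0.021), and Pak1 and Sesn1, beside Dupd1, without high-fat control 1 (both adjusted p = 0.048), while Cilp alone passed without high-fat control 4.

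Other genes that changed in knockouts did not pass that test. Sln was at 0.835 to 9.82 CPM (median 2.17, n = 7) on high-fat diet and at 0.696, 1.60, 2.23 and 4.28 CPM on chow in controls, with a log2 difference of 0.49 ± 0.65 (adjusted p = 0.84) there, and the diet effects differed by 2.39 ± 0.90 (adjusted p = 1). For Myog the control value was 0.28 ± 0.24 (adjusted p = 0.71) and the difference between genotypes 1.02 ± 0.36 (adjusted p = 1). For P4ha1 they were 0.19 ± 0.12 (adjusted p = 0.55) and 0.55 ± 0.18 (adjusted p = 0.95), for Pf4 0.34 ± 0.17 (adjusted p = 0.42) and 0.92 ± 0.27 (adjusted p = 0.74), and for Mylk2 0.08 ± 0.09 (adjusted p = 0.80) and -0.50 ± 0.15 (adjusted p = 0.74). Among the matrix and sarcomere genes named here, changes in controls were 0.91 ± 0.18 (adjusted p = 0.0044) for Serpinh1, 2.49 ± 0.34 (adjusted p = 0.0012) for Xirp1 and 0.37 ± 0.08 (adjusted p = 0.0069) for Klhl41. In all, 123 of the 419 knockout calls had an unadjusted p under 0.05 for the difference, as did 575 of all 12762 tested genes. The 419 were chosen by their diet change in knockouts, which is itself part of the difference. A raised share among them is therefore built in and is not a test of whether the genotypes differ.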

How the data were processed

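RNA of whole gastrocnemius muscle was sequenced as QuantSeq 3′ tags. The authors deposited raw counts per gene. The deposited normalized counts, a signal whose values are not whole and sum to about the same total in each library, were used in 1 alternative only. The submitters' processing notes name FastQC 0.11.4, STAR 2.6.0, HTSeq (version not given), edgeR 3.26.8 and the builds mm10 and GRCm38.p4, with no roles or order.

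The 19 libraries of the first batch (4 groups) were fitted together with edgeR 4.0.16 in R 4.3.3: filterByExpr, TMM scaling, robust quasi-likelihood dispersions, Benjamini-Hochberg adjustment, threshold 0.05. The contrasts were diet in knockouts, diet in controls and their difference. The second batch holds no chow libraries and was not used. The code was tested on simulated data. DESeq2 1.42.0, limma 3.58.1 (log2 of normalized count plus 1), other scalings and filters and leaving out each library were alternatives. Libraries of a group come from separate animals; depth was 9086647 to 14706388 counts in the knockouts.

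Members and gene lists were chosen with earlier results of these data known. Named were Arntl, the 12 highest and 12 lowest genes that passed in knockouts (8 and 8 in controls; average log2 CPM of at least 2, no predicted, Riken or mitochondrial genes), the 3 with the smallest p for the difference where none passed, and up to 4 members of a list with the smallest p. The remaining list members named, such as Pygm, Manf, Slc2a4 and Trim63, were chosen after their values were seen. A few genes that the naming rule covers are not reported here; they stay in the counts.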

Additional observations from a re-analysis of the deposited data

Results flagged for a closer look

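Of 103 values examined for a library far from the others of its group, 3 stood apart by Dixon's test at the 95% level, which chance passes in about 1 in 20 groups. Summed B and T lymphocyte markers reached 155.1 CPM in 1 chow control, with the next highest chow control at 24.1 CPM. Hsp90b1 was lowest in high-fat knockout 3, at 85.7 CPM, with the next at 91.5 CPM. Pfkfb3 was highest in high-fat knockout 3, at 137.4 CPM, with the next at 77.1 CPM.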

How the results depend on the processing

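For diet in knockouts, 419 genes passed, and 549 did with DESeq2, 434 with no scaling, 615 with no filter, 426 with limma on the normalized counts and 157 at adjusted p under 0.01. Leaving out 1 library gave 132 to 370. Leaving out chow knockout 1 and chow control 2 together, chosen after seeing the data, gave 429, 291 of them among the 419. For diet in controls, 302 passed, and 709 did with no scaling, 492 with no filter, 121 at adjusted p under 0.01 and 181 to 308 with 1 library left out. For the difference, 0 passed, against 3 with DESeq2, 1 with no scaling (Pak1), 8 with no filter (Cilp, Cited2, Dupd1, Dusp1, Gm22748, Pak1, Rasd2, Sesn1) and 0 to 3 with 1 library left out. With the replicate number as a block, 328 genes passed in knockouts, 265 in controls and 1 for the difference (Sln, 2.62, adjusted p = 0.00061). The numbers were not taken as a pairing, since same-numbered knockouts correlated at -0.07, 0.02 and 0.02 over the deviations of 8023 genes and same-numbered controls at 0.16, -0.03, 0.07 and -0.09. The difference in mitochondrial share was 6.25 to 9.09 percentage points with 1 knockout left out. No named gene that passed in knockouts changed sign there in the settings run. Of those that did not pass, the log2 difference ran from -0.34 to 0.14 for Arntl and from -0.11 to 0.10 for Col4a4. The balance of 219 higher to 200 lower turned to 268 and 281 with DESeq2, 118 and 316 with no scaling, 216 and 227 with a filter on average log2 CPM, 215 and 220 without mitochondrial genes, 153 and 175 without chow knockout 2 and 60 and 72 without chow knockout 3, and was even at 213 each with RLE scaling. The cause of these shifts was not tested. With 3 chow knockouts, each of them weighs heavily on every call.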
